A study of Homo sapiens with 9 samples.

Results

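The mitochondrial respiratory chain genes that are encoded in the nucleus were compared between PC3 prostate cancer cells and LNCaP prostate cancer cells grown with or without androgen. The set was taken by name from the count table: every row whose symbol begins with NDUFA, NDUFB, NDUFC, NDUFS, NDUFV, NDUFAF, UQCR, COX4, COX5, COX6, COX7, COX8 or ATP5, together with SDHA, SDHB, SDHC, SDHD and CYC1. This gave 104 of 28216 rows. They were 37 genes of complex I, 4 of complex II, 10 of complex III, 19 of complex IV and 19 of complex V. A further 8 were complex I assembly factors named NDUFAF. The other 7 rows were pseudogenes, readthrough rows and noncoding RNAs that carry a member's name. The genes of complexes III to V include subunits and related genes, such as UQCRHL, COX7A2L, NDUFA4L2 and the inhibitor ATP5IF1. NDUFA4 and its paralogue NDUFA4L2 were placed with complex IV, where the NDUFA4 protein is found.

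The 9 libraries of poly(A) RNA were 3 of untreated PC3 cells, 3 of androgen-treated LNCaP cells and 3 of vehicle-treated LNCaP cells. The LNCaP cells (clone FCG as the study spells it) spent 24 h in phenol red-free RPMI medium with 10% charcoal-stripped serum and then 48 h with 10 nM androgen or with 0.01% ethanol. The PC3 cells grew in F12K medium with 10% serum that was not stripped, so that the cell line and its medium cannot be told apart in any difference between PC3 and LNCaP. Both lines come from metastases, each group is a single line, and the sample labels name dihydrotestosterone where the text of the study names a synthetic androgen, R1881.

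Each library held 17397706 to 25640325 counts in genes, and levels are given as CPM, counts adjusted for library size. The summed level of 8 LNCaP markers was 10944 to 11748 CPM with androgen, 4075 to 4587 CPM with vehicle and 624 to 990.4 CPM in PC3, and that of 7 PC3 markers was 4966 to 5738 CPM in PC3 and at most 46.6 CPM in any LNCaP library. Of the 8 LNCaP markers, 7 were lower and 1 was higher in PC3 than with androgen, each at an adjusted p under 0.05 (edgeR). In PC3, 1 of the 8 had no count, and the largest count of a single marker in a library was 20449. The 6 markers of other cell types summed to 40.4 to 50.2 CPM in PC3 and to at most 25.4 CPM in LNCaP. PC3 replicate 3 stood apart from the other PC3 libraries: the median coefficient of variation of the tested members was 6.98% in PC3, against 2.43% with androgen and 2.74% with vehicle. Nothing in the labels says whether replicates came from separate cultures, so p-values measure the spread between these libraries.

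The respiratory chain passes electrons from food to oxygen in the inner mitochondrial membrane. Complex I takes electrons from NADH and complex II takes them from succinate as a step of the citric acid cycle. Both hand them through ubiquinone to complex III, which passes them by way of cytochrome c to complex IV, where oxygen is reduced to water. Complexes I, III and IV pump protons, and complex V, the ATP synthase, uses the proton gradient to make ATP. Every subunit of complex II is encoded in the nucleus, whereas the other complexes also contain subunits encoded in mitochondrial DNA, and those were not analysed here. Prostate epithelium is known for a truncated citric acid cycle and citrate secretion, and the androgen receptor is the main hormone-dependent regulator of luminal prostate cells.

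Promoters of this gene family are known for binding sites of nuclear respiratory factor 1 (NRF1) and of ETS-family factors such as GABP. Promoter windows, 250 bases before to 50 bases after the start in RefSeq on GRCh38.p14, were matched by symbol for 81 of the 104 rows, of which 77 are protein-coding members of the complexes or assembly factors. The NRF1 letters, the run of capitals printed for NDUFB4, were searched on both strands and lay in 5 of these 77 windows (6.49%), in 1.36% of all 27305 windows and in 2.28% of the windows of tested genes. The ETS letters CCGGAAG, also searched on both strands, lay in 21 of 77 (27.3%) and in 10.7% of all windows, or 19.8% of the windows of tested genes. The stretches before the start are shown for 6 members described below, which were chosen with their changes known. NDUFB4 and NDUFAF4 fell with androgen, and NDUFA1, COX6B1, UQCR11 and ATP5F1C rose. Whether the letters have a part in these changes was not tested. Capitals mark the NRF1 or ETS letters, which do not overlap.
NDUFB4 (chr3:120596136-120596335, plus strand): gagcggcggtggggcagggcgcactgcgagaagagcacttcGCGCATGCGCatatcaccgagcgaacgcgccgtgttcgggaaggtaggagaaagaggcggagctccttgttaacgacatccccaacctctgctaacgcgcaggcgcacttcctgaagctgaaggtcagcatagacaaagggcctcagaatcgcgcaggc
NDUFAF4 (chr6:96897892-96898091, minus strand): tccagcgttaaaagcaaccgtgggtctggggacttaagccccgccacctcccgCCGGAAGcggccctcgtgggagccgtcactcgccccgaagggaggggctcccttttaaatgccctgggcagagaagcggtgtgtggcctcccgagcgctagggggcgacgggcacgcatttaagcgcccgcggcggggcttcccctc
NDUFA1 (chrX:119871742-119871831, plus strand): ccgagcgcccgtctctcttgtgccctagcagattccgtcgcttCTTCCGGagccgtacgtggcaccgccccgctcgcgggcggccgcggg
COX6B1 (chr19:35648173-35648322, plus strand): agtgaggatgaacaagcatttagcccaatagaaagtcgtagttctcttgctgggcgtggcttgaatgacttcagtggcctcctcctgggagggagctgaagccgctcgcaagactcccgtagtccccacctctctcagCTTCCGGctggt
UQCR11 (chr19:1605463-1605612, minus strand): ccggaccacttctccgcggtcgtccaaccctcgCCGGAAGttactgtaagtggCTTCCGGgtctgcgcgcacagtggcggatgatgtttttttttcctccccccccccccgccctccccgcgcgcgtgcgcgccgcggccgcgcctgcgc
ATP5F1C (chr10:7787997-7788176, plus strand): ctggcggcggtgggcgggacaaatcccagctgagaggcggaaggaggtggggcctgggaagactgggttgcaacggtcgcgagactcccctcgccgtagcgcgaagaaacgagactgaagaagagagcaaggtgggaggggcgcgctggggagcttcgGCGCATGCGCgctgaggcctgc
In NDUFB4 and ATP5F1C the capitals are NRF1 letters, and in the other 4 they are ETS letters. SDHD, not printed here, held NRF1 letters beginning 110 bases and ETS letters beginning 77 bases before its start. NDUFV2 and NDUFAF1, which rose most with androgen within complex I and the assembly factors, held neither. A full androgen response element, searched as AGAACA and its reverse complement with 3 bases between them, was in 0 of 77 windows and in 0 of the 10164 windows of tested genes. Of the 21 members with ETS letters, 11 rose and 3 fell with androgen, where 40.5% of all 1965 tested genes with these letters rose and 31.4% fell. Of the 5 with NRF1 letters 1 rose and 2 fell, where 28.9% of 228 genes rose and 39.04% fell. These matches describe letters in a window and not binding.

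The first comparison asked how androgen moved these genes in LNCaP cells. Each gene was fitted with edgeR's quasi-likelihood test on the 6 LNCaP libraries, "past the test" (rose or fell) means an adjusted p under 0.05, and members past the test that also differed 2-fold or more are called at 2-fold. Of the 104 rows, 90 had more than 3 CPM in at least 3 libraries and were tested. Androgen raised 41 and lowered 13 of them, where 37.1% of all 11697 tested genes rose and 37.8% fell (74.9% in either direction), so the share of members that rose (45.6%) was above that of all genes and the share that fell (14.4%) was below it. Androgen libraries lay wholly above vehicle libraries for 46 of the 90 tested members and wholly below for 21. Of all tested genes, 38.5% lay wholly above and 39.4% wholly below (77.9% in either direction). The changes were small. The median of the members was 0.079 on the log2 scale against -0.0068 for all genes, and 2 members, one in each direction, were called at 2-fold where 14.0% of all genes were (6.54% higher and 7.49% lower). Leaving out vehicle replicate 3 lowered the members' median to 0.046. When libraries were scaled by their totals alone, the median of all genes moved by -0.15, to -0.16, the members divided into 22 higher and 39 lower with a median of -0.073, and the members' distance above all genes was 0.086 in both fits. In that scaling, which lowers every gene by about the same amount, 10 subunits of complex I were higher and 15 lower, 3 and 6 of complex III, 4 and 8 of complex V and 2 and 3 of the assembly factors. In a bulk library, fewer cells that express a gene and less RNA per cell cannot be told apart.

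**Figure D1:**
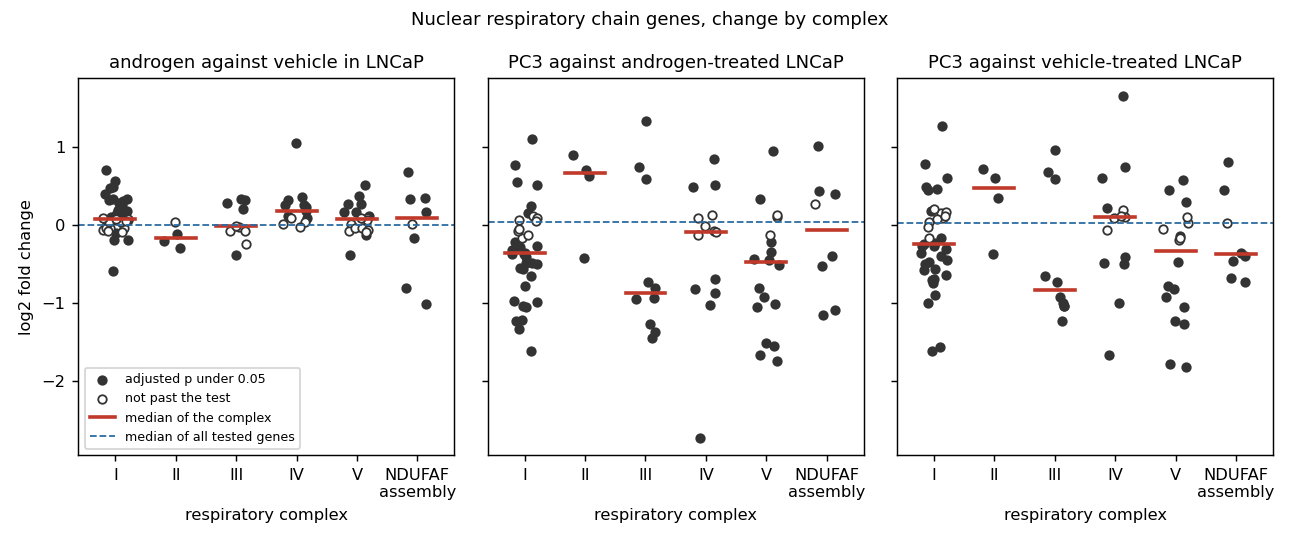
Log2 fold change of each tested member by respiratory complex in the 3 comparisons. Filled points have an adjusted p under 0.05, open points do not, the solid bar is the median of the complex and the dashed line the median of all tested genes. Complex II lies below its neighbours with androgen and above them in PC3, whereas complexes III and V lie mostly below the line in PC3.

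In complex I, 17 of 37 tested subunits rose and 4 fell. The largest rise was in NDUFV2, an iron-sulphur subunit of the arm that oxidises NADH. The gene lies at chr18:9102630-9134345 (GRCh38, GENCODE 44, as for all gene positions here) and stood at 451, 428 and 446 CPM in the 3 androgen libraries and at 281, 269 and 268 CPM in the 3 vehicle libraries. The groups did not overlap, and the level rose 1.62-fold (log2 fold change 0.70 ± 0.039 SE, adjusted p = 3.3e-09). Of all 74-base stretches of NDUFV2 transcripts, 6.87% also occur elsewhere in the genome. NDUFS8, a core subunit of the arm that leads to ubiquinone, rose as well, from 105 ± 4.0 to 145 ± 2.7 CPM (SD, n = 3) (log2 fold change 0.47 ± 0.041 SE). Not past the test were NDUFS1, the largest iron-sulphur subunit (log2 fold change 0.053 ± 0.036 SE), and NDUFV1, the flavin subunit (-0.098 ± 0.043, adjusted p = 0.056), which passed when replicate numbers were taken as pairs (adjusted p = 0.020).

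Both NDUFC subunits of the membrane arm rose. NDUFC2 stood at 49.5, 49.1 and 48.0 CPM with androgen and at 34.3, 33.3 and 32.2 CPM with vehicle (log2 fold change 0.56 ± 0.052 SE), although 18.6% of its exon length is shared on the same strand with the readthrough row NDUFC2-KCTD14, which had no count. NDUFC1 rose from 70.7 ± 0.99 to 98.6 ± 2.2 CPM. NDUFA7, NDUFA1, NDUFA13, NDUFB10 and NDUFB7, all accessory subunits, rose by 0.39, 0.33, 0.30, 0.31 and 0.28 on the log2 scale.

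By contrast NDUFB4, an accessory subunit at the distal end of the membrane arm, fell. It stood at 274, 282 and 289 CPM with androgen and at 449.7, 402 and 428 CPM with vehicle, with no overlap (log2 fold change -0.60 ± 0.044 SE, adjusted p = 5.0e-08). The other 3 that fell were NDUFB6 (-0.20), NDUFA9 (-0.20) and NDUFA5 (-0.10), and NDUFA5 was not past the test without androgen replicate 1, androgen replicate 3, vehicle replicate 1 or vehicle replicate 2, or under DESeq2's Wald test. Of the 37 subunits, 16 were not past the test, and those that passed ran from -0.60 to 0.70.

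The NDUFAF assembly factors help to build complex I and are not part of it. Of 8, 4 rose (50%) and 3 fell (37.5%), where 37.1% of all tested genes rose and 37.8% fell. NDUFAF1, a member of the complex that assembles the membrane arm, rose from 43.8, 40.7 and 40.2 CPM to 67.9, 67.4 and 63.3 CPM (log2 fold change 0.67 ± 0.053 SE, adjusted p = 1.0e-07). NDUFAF3 and NDUFAF7 rose by 0.34 and 0.34, and NDUFAF2 by 0.16. NDUFAF2 was not past the test when any library other than androgen replicate 2 was left out. For NDUFAF7, 27.6% of the reads lay on the other strand. NDUFAF4, which acts together with NDUFAF3, moved the other way. It stood at 38.7, 35.0 and 40.9 CPM with vehicle and at 21.3, 19.7 and 24.2 CPM with androgen (log2 fold change -0.81 ± 0.081 SE, adjusted p = 9.8e-07). NDUFAF6 had the largest fall of all members, from 35.0, 34.0 and 40.4 CPM to 17.7, 17.0 and 19.5 CPM, and was 2.02-fold lower with androgen (log2 fold change -1.01 ± 0.080 SE, adjusted p = 9.9e-08). Its fold lies at the 2-fold limit, and the call at 2-fold was lost when androgen replicate 1, androgen replicate 2 or vehicle replicate 3 was left out, with the fall itself past the test each time.

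In complex II, none of the 4 subunits rose and 3 fell (75%), where 37.1% of all tested genes rose and 37.8% fell. SDHA (chr5:218303-257082), the flavin subunit that oxidises succinate, stood at 134, 132 and 129 CPM with vehicle and at 115, 118 and 109.9 CPM with androgen (log2 fold change -0.20 ± 0.042 SE, adjusted p = 6.1e-04). SDHB, the iron-sulphur subunit, fell by 0.13 on the log2 scale (adjusted p = 0.025, not past the test without androgen replicate 1, androgen replicate 2 or vehicle replicate 3), and SDHD, a membrane anchor, fell from 90.3 ± 3.1 to 73.2 ± 0.94 CPM (SD, n = 3) (-0.30 ± 0.043 SE). The groups did not overlap for any of these. In the fit of all 9 libraries together SDHA and SDHB were not past the test, and SDHD was. SDHB was also not past it under DESeq2's Wald test. SDHC, the other anchor, stood at 130.2, 139 and 134 CPM with vehicle and at 136, 138 and 139 CPM with androgen, which overlap. The summed level of complex II was 427 ± 4.54 CPM with vehicle and 389 ± 3.46 CPM with androgen (SD, n = 3), whereas the sums of complexes I, III and IV were higher with androgen; as shares of all counts in genes, without scaling factors, these 3 sums were not higher. Parts of the transcripts of SDHA (11.0%), SDHC (29.3%) and SDHD (12.6%) occur elsewhere in the genome, and reads with several matches, tallied apart from the genes in the deposited files, were 7.18% to 9.36% of the reads per library.

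In complex III, 4 of 10 rose (40%) and 1 fell (10%). Of all tested genes 37.1% rose, near the share in this complex, and 37.8% fell. UQCR10, UQCRQ and UQCR11, small accessory subunits, rose by 0.32, 0.31 and 0.28, and the core protein UQCRC2 rose by 0.21. CYC1, cytochrome c1, which delivers electrons to cytochrome c, fell. It stood at 169, 172 and 162 CPM with vehicle and at 128, 128 and 129 CPM with androgen (log2 fold change -0.38 ± 0.038 SE, adjusted p = 1.0e-06). The Rieske protein UQCRFS1 was not past the test (log2 fold change -0.079 ± 0.039 SE), nor was the hinge protein UQCRH (-0.026 ± 0.035). UQCRHL, an intronless gene related to UQCRH, was listed at 7.97, 7.35 and 7.01 CPM with vehicle and 6.40, 6.12 and 6.25 CPM with androgen. It was not past the test (adjusted p = 0.052) and passed with replicate numbers as pairs (adjusted p = 0.046), where UQCRC1 passed too.

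In complex IV, 9 of 13 tested members rose (69.2%) and none fell, where 37.1% of all tested genes rose and 37.8% fell. COX6B1 rose from 202 ± 6.8 to 258 ± 9.1 CPM, COX7A2 from 194 ± 2.9 to 242 ± 4.8 CPM, NDUFA4 from 306 ± 6.2 to 364 ± 9.0 CPM and COX6C from 194 ± 4.2 to 226 ± 4.6 CPM (SD, n = 3). Their log2 fold changes were 0.36, 0.32, 0.26 and 0.22. COX7A2L, a factor that joins complexes III and IV, rose by 0.25. COX4I1 and COX5A, which meet early in assembly, were not past the test (-0.025 ± 0.035 and 0.0039 ± 0.038 SE). COX8A, COX5B and COX7B rose by 0.087, 0.11 and 0.17, and COX8A and COX5B were not past the test when any library other than androgen replicate 3 was left out. With libraries scaled by totals alone, 3 members of complex IV were higher and 3 lower.

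NDUFA4L2 (chr12:57234903-57240715), a paralogue of NDUFA4 known to be induced in low oxygen, had the largest rise of all members and the widest spread. Its counts were 244, 609 and 257 with androgen and 76, 295 and 121 with vehicle in replicates 1, 2 and 3, which is 10.9, 30.1 and 12.9 CPM and 3.98, 16.2 and 6.15 CPM. The groups overlap, because replicate 2 is high in both, although androgen was above vehicle within each replicate number (log2 fold change 1.04 ± 0.43 SE, adjusted p = 0.042, and adjusted p = 1.4e-07 with replicate numbers as pairs). The call was lost when androgen replicate 2 (log2 fold change 0.46), vehicle replicate 1 (0.68) or vehicle replicate 3 (0.82) was left out, and under DESeq2's Wald test (adjusted p = 0.19).

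In complex V, 7 of 18 rose and 2 fell. All 5 tested small subunits of the membrane domain rose: ATP5MF (0.51), ATP5MPL (0.37), ATP5ME (0.27), ATP5MD (0.26) and ATP5MG (0.16). ATP5MF stood at 76.0, 71.3 and 74.3 CPM with vehicle and at 104, 103 and 108 CPM with androgen, with no overlap. Of these 5, 4 were also higher with libraries scaled by totals alone. Of the 5 subunits of the catalytic F1 head, ATP5F1C rose by 0.12 and the others were not past the test. ATP5MC1, one of the genes for the c-ring subunit, rose by 0.16. ATP5F1C was not past the test without vehicle replicate 3, and ATP5MC1 without vehicle replicate 2 or 3. ATP5F1B, the catalytic beta subunit and one of the most abundant members, stood at 1524, 1509 and 1498 CPM with vehicle and at 1465, 1476 and 1440.3 CPM with androgen (log2 fold change -0.046 ± 0.034 SE). ATP5PO, the stalk subunit that confers sensitivity to oligomycin, fell from 157 ± 6.1 to 119 ± 2.6 CPM (log2 fold change -0.39 ± 0.042 SE, adjusted p = 2.1e-06). ATP5IF1, the inhibitor that blocks ATP hydrolysis by the synthase, fell by 0.13 on the log2 scale. With replicate numbers as pairs 9 more members passed, ATP5F1A, ATP5F1D, ATP5MC2, ATP5MC3 and ATP5PF of complex V among them.

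**Figure D2:**
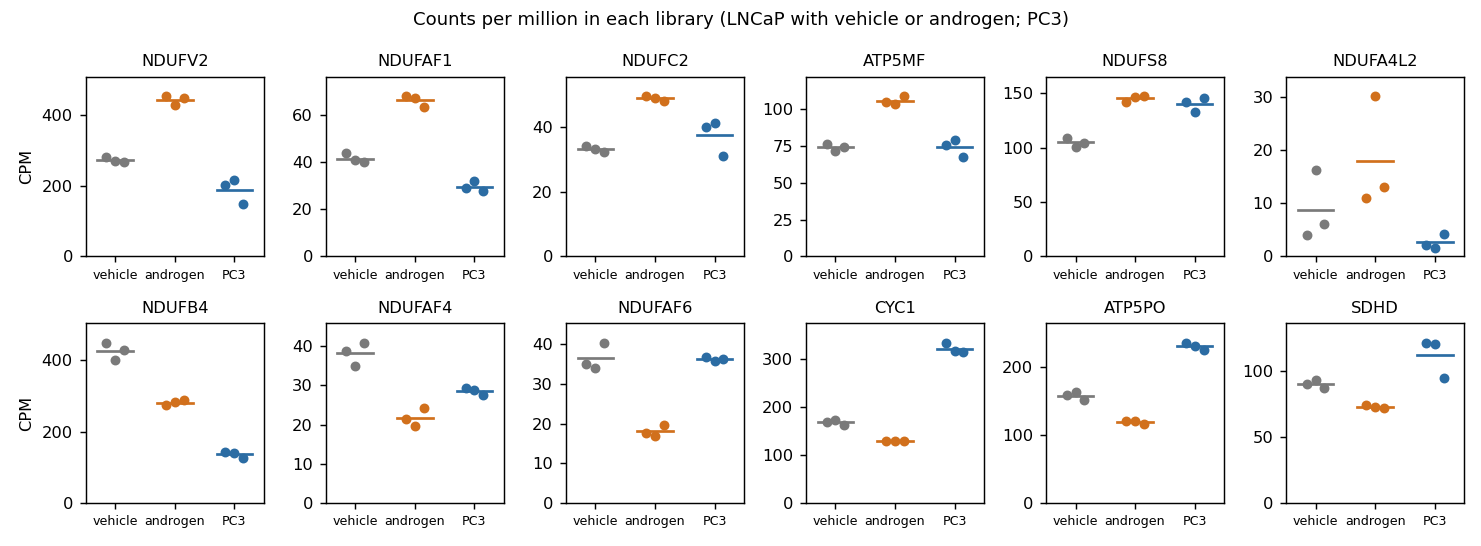
CPM of 12 members in each of the 9 libraries, with the mean of each group as a bar. The upper row shows members that rose with androgen and the lower row members that fell. Androgen and vehicle libraries do not overlap except for NDUFA4L2, where replicate 2 is high in both groups. Of all tested genes, 77.9% also do not overlap between these groups.

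The second comparison asked how PC3 cells differed from androgen-treated LNCaP cells. Of 91 tested members, PC3 was higher in 20 and lower in 53, where 42.9% of all 12541 tested genes were higher and 41.1% lower (84.0% in either direction). At 2-fold, 3 members were higher and 19 lower, against 24.0% and 22.1% of all genes (46.0% in either direction). The median of the members was -0.37 on the log2 scale and that of all genes 0.036. Against vehicle-treated LNCaP cells, which share the PC3 libraries, 22 of 91 were higher and 49 lower, where 42.6% and 40.8% of all 12686 tested genes were (83.4% in either direction), 2 members were higher and 13 lower at 2-fold, against 22.2% and 21.0%, and the median was -0.25 against 0.026. Without PC3 replicate 3 the medians were -0.17 and -0.13, 29 members were higher and 48 lower against androgen-treated cells, and 32 and 43 against vehicle-treated cells. These counts include COX7B2 and NDUFA4L2, which passed the filter on low counts through the group in which they are high.

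Summed over all members, the level was 15927 ± 15.4 CPM with androgen, 15145 ± 160 CPM with vehicle and 12509 ± 742 CPM in PC3 (SD, n = 3). The PC3 libraries held 13025, 12843 and 11660 CPM in replicates 1, 2 and 3, all below every LNCaP library. As a share of all counts on genes, without scaling factors, the members took 1.51% with androgen, 1.59% with vehicle and 1.26% in PC3, so that the order of the LNCaP groups depended on the scaling and the low place of PC3 did not. The difference was widest in complex V, with 5433 ± 25.2, 5376 ± 56.2 and 3671 ± 378.0 CPM. Complex IV stood at 2587 ± 73.8 CPM in PC3 and 2660 ± 39.1 CPM with vehicle, where the libraries overlap, and complex II was highest in PC3 at 531 ± 60.2 CPM.

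**Figure D3:**
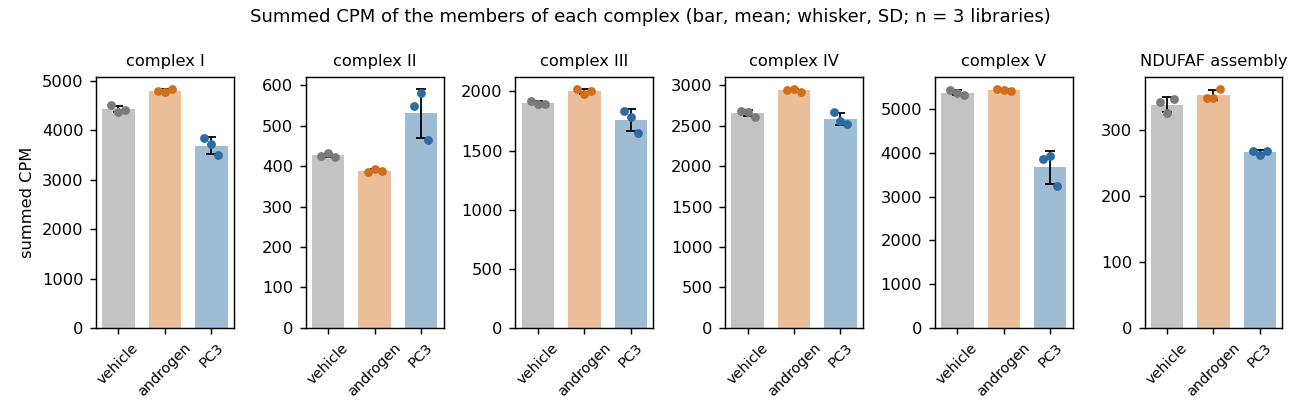
Summed CPM of the members of each complex in LNCaP cells with vehicle or androgen and in PC3 cells. Bars are means, whiskers SD over 3 libraries and points single libraries. PC3 has the lowest mean for every complex but II, where it has the highest.

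Complex II was the one complex in which most subunits were higher in PC3. SDHA stood at 215, 241 and 181 CPM in PC3, above 115, 118 and 109.9 CPM with androgen and 134, 132 and 129 CPM with vehicle (log2 fold changes 0.90 ± 0.11 and 0.71 ± 0.11 SE). SDHB stood at 105 ± 18 CPM (SD, n = 3) in PC3 (log2 fold changes 0.71 and 0.60) and SDHD at 112 ± 15 CPM (0.62 and 0.34). SDHC alone was lower in PC3, at 103, 98.5 and 104 CPM (-0.43 and -0.38). PC3 replicate 3 was the lowest PC3 library for SDHA, SDHB and SDHD. The SDHD difference from vehicle-treated cells was no longer past the test when vehicle replicate 1 (adjusted p = 0.13), 2 (0.12) or 3 (0.19) was left out.

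Every tested member of complex III, UQCRHL included, differed in both comparisons, 3 upward and 7 downward. Of all tested genes, 84.0% and 83.4% differed. The core protein UQCRC1 was higher in PC3, at 328, 334 and 281 CPM against 194, 186 and 188 CPM with androgen (log2 fold change 0.74 ± 0.088 SE, adjusted p = 8.9e-05). Its partner UQCRC2 (chr16:21953288-21983660) was lower, at 128, 128 and 115 CPM against 345, 341 and 337 CPM (log2 fold change -1.46 ± 0.074 SE, adjusted p = 6.2e-07). CYC1 was higher in PC3, at 334, 316 and 315 CPM, with log2 fold changes of 1.33 ± 0.059 and 0.96 ± 0.059 SE against androgen and vehicle. UQCRB, which binds near the ubiquinone site, was higher by 0.58 in both comparisons. UQCRQ, UQCR10, UQCR11 and the Rieske protein UQCRFS1 were lower, with log2 fold changes of -1.38, -1.28, -0.95 and -0.94 against androgen-treated cells. UQCRH stood at 151 ± 3.3 CPM in PC3 and at 251 ± 3.1 CPM with androgen.

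**Figure D4:**
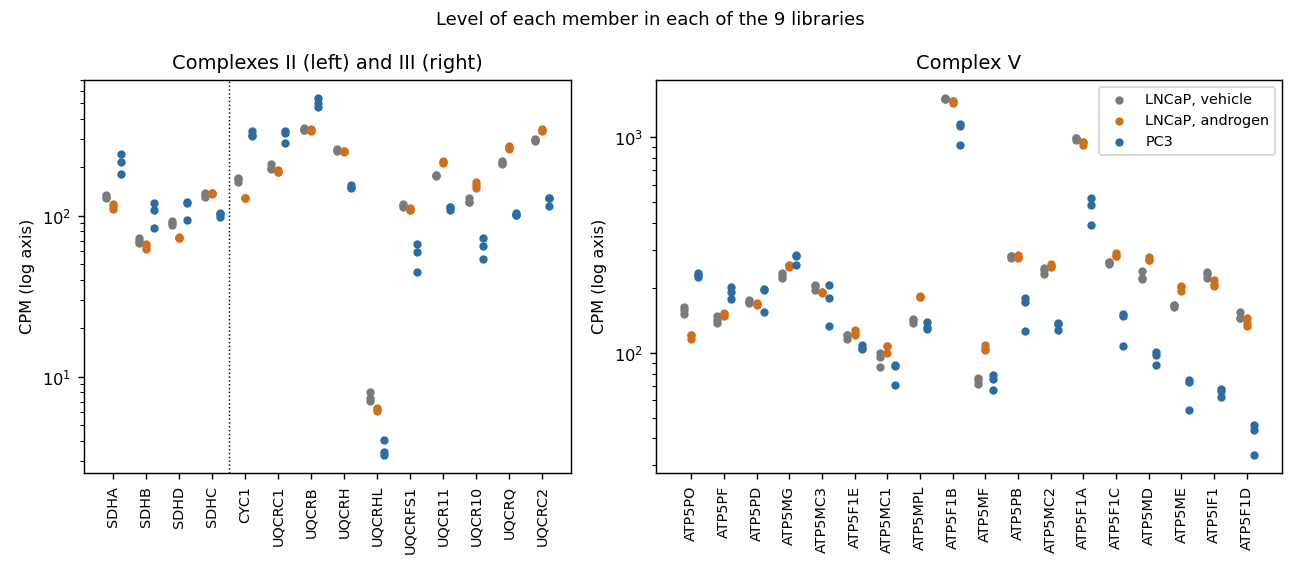
CPM, on a log axis, of each tested member of complexes II, III and V in each of the 9 libraries, ordered within each complex by the difference between PC3 and androgen-treated LNCaP. PC3 lies above LNCaP for SDHA, SDHB, SDHD, CYC1, UQCRC1, UQCRB, ATP5PO and ATP5PF and below it at the right of each panel.

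In complex V, 2 of 18 tested members were higher and 13 lower than with androgen, and 3 and 10 than with vehicle. All 5 subunits of the F1 head were lower in both comparisons. ATP5F1D (chr19:1241746-1244825), the delta subunit of the central stalk, stood at 43.6, 46.0 and 33.4 CPM in PC3 and at 144, 138 and 133 CPM with androgen, 3.37-fold lower (log2 fold change -1.75 ± 0.13 SE, adjusted p = 4.8e-06). ATP5F1A, the alpha subunit, stood at 483, 519 and 391 CPM against 946, 949 and 918 CPM, and ATP5F1B at 1129, 1149.8 and 919 CPM against 1465, 1476 and 1440.3 CPM. ATP5F1C and ATP5F1E had log2 fold changes of -1.06 and -0.22, and ATP5F1E was not past the test in either comparison when any PC3 replicate was left out.

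ATP5IF1, the inhibitor of the synthase, was lower in PC3 with little spread, at 66.8, 67.8 and 62.4 CPM against 208, 205 and 217 CPM with androgen and 232, 221 and 238 CPM with vehicle (log2 fold changes -1.67 ± 0.066 and -1.79 ± 0.067 SE). Among membrane subunits, ATP5ME stood at 67.5 ± 12 CPM in PC3 and 199 ± 5.2 CPM with androgen (-1.56), and ATP5MD at 95.3 ± 6.8 and 273 ± 5.3 CPM (-1.51). ATP5MF and ATP5MPL were lower than with androgen (-0.51 and -0.44) and not past the test against vehicle (0.022 and -0.054). ATP5MG, also of the membrane domain, was higher than with vehicle (0.29), a call lost when any vehicle replicate was left out. ATP5PO was higher in PC3 at 235, 230.2 and 225 CPM (0.95 against androgen and 0.58 against vehicle), and ATP5PF, another stalk subunit, was higher by 0.34 and 0.44.

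In complex I, 6 of 37 subunits were higher and 23 lower than with androgen, and 7 and 21 than with vehicle. NDUFB1 (chr14:92116122-92121917), a small subunit of the membrane arm, had the largest fall against androgen-treated cells, at 47.4, 46.1 and 43.0 CPM against 137, 139.5 and 145 CPM (log2 fold change -1.62 ± 0.065 SE, adjusted p = 2.0e-07). NDUFB4 had the largest against vehicle-treated cells, at 142, 141 and 125 CPM (-1.63 ± 0.083 SE). NDUFB10, NDUFV2, NDUFC1 and NDUFAB1, the last of which is also the mitochondrial acyl carrier protein, were lower than with androgen (log2 fold changes -1.34, -1.23, -1.22 and -1.06). NDUFB9 was the largest rise, at 342, 311 and 368 CPM against 164, 153 and 161 CPM with androgen and 149, 143 and 141 CPM with vehicle (1.10 ± 0.075 and 1.26 ± 0.072 SE). NDUFA10, NDUFB8 and NDUFA11 were higher as well, by 0.77, 0.54 and 0.51 against androgen.

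Among the assembly factors, NDUFAF1 and NDUFAF3 were lower in PC3 than with androgen (log2 fold changes -1.16 and -1.09) and than with vehicle (-0.47 and -0.73). NDUFAF7 was higher by 0.44 and 0.80. NDUFAF4 and NDUFAF6, which fell with androgen, gave PC3 a different place against each LNCaP group. NDUFAF4 stood at 29.3, 28.7 and 27.7 CPM in PC3, above the androgen libraries (log2 fold change 0.40 ± 0.096 SE) and below the vehicle libraries (-0.40 ± 0.084), and the difference from androgen was not past the test without androgen replicate 1 or 2. NDUFAF6 stood at 36.7, 35.8 and 36.3 CPM, 2.01-fold above androgen and among the vehicle libraries (0.016 ± 0.084 SE, adjusted p = 0.86). Its call at 2-fold against androgen was lost without any single androgen library.

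Complex IV was divided. Against androgen 3 of 14 were higher (21.4%) and 5 lower (35.7%), and against vehicle 4 (28.6%) and 5 (35.7%). Of all tested genes, 42.9% were higher and 41.1% lower than with androgen, and 42.6% and 40.8% than with vehicle. The counts of complex IV include COX7B2 among the higher and NDUFA4L2 among the lower, which each passed the filter through the group in which they are high. COX5A, which carries an allosteric site of the enzyme, stood at 95.0, 98.6 and 92.2 CPM in PC3 and 196, 194 and 196 CPM with androgen (-1.03 ± 0.061 SE). COX6B1, COX7A2 and NDUFA4 were lower (log2 fold changes -0.88, -0.82 and -0.70 against androgen). COX6C and COX6A1 were higher by 0.50 and 0.49, and 17.7% of the stretches of COX6A1 occur elsewhere in the genome. COX4I1 and COX7C, among the most abundant, were not past the test (0.12 ± 0.058 and -0.13 ± 0.080 SE against androgen), but COX4I1 passed and was higher in both comparisons when any PC3 replicate was left out. COX8A was not past the test either (-0.016 ± 0.078), and without PC3 replicate 3 it was higher in PC3 (0.17, adjusted p = 0.016). COX7B2, a paralogue of COX7B described in testis, was low everywhere, at 4.49, 4.18 and 5.26 CPM in PC3, 2.60, 2.76 and 2.37 CPM with androgen and 1.52, 1.65 and 1.32 CPM with vehicle. It passed the filter through the PC3 libraries alone, and with any PC3 replicate left out it was not tested. NDUFA4L2 had its lowest mean in PC3, at 2.20, 1.65 and 4.15 CPM, although PC3 replicate 3 lay above vehicle replicate 1. It passed the filter through the LNCaP libraries. For both only the levels are given.

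Some subunits have isoforms that replace each other in particular tissues, and several of these were at or near 0 here. The muscle or lung isoforms COX4I2, COX6A2 and COX7A1 and the testis isoform COX8C had 0 counts in all 9 libraries, which allows at most 0.118 to 0.165 CPM per library, and COX6B2 had at most 3 counts in a library. The 3 muscle markers reached at most 0.403 CPM in sum. The same c-ring protein of complex V is encoded by 3 genes. Per kilobase of the canonical transcript (632 bases for ATP5MC2, 646 for ATP5MC1 and 2587 for ATP5MC3), the level of ATP5MC2 was 380.0 ± 11 CPM with vehicle, 401 ± 6.7 CPM with androgen and 211 ± 7.9 CPM in PC3, above ATP5MC1 with 145 ± 11, 162 ± 6.1 and 126 ± 14 CPM and ATP5MC3 with 77.9 ± 2.2, 73.4 ± 0.29 and 66.9 ± 14 CPM (SD, n = 3). Without division by length ATP5MC3 stood at 173 ± 37 CPM in PC3 and ATP5MC2 at 134 ± 5.0 CPM, so the order there depends on the length used. ATP5MC2 was lower in PC3 than with androgen (log2 fold change -0.92 ± 0.058 SE), ATP5MC1 less so (-0.35 ± 0.099) and ATP5MC3 was not past the test (-0.13 ± 0.15). Per kilobase, NDUFA4 with 179 ± 4.4 CPM with androgen exceeded NDUFA4L2 with 19.1 ± 11 CPM.

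On the long arm of chromosome 8 lie 5 members. NDUFAF6, UQCRB, COX6C, NDUFB9 and CYC1 lie between positions 94895533 and 144097525 (GENCODE 44, GRCh38). All 5 were higher in PC3 than with androgen, and they include each of the 3 members called 2-fold higher (CYC1, NDUFB9 and NDUFAF6). Against vehicle 4 of 5 were higher, all but NDUFAF6. The other genes of that stretch were also higher: 135 tested genes had a median log2 fold change of 1.10 against androgen, and 72.6% of them were past the test and higher, while the 248 tested genes of chromosome 8 before NDUFAF6 had a median of -0.30. Against vehicle the medians were 0.92 for 137 genes and -0.34 for 246. The copy number of the stretch was not measured, and its part in the result was not tested. Without chromosome 8, 15 of 86 members were higher and 53 lower in PC3 than with androgen, with a median of -0.40.

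**Figure D5:**
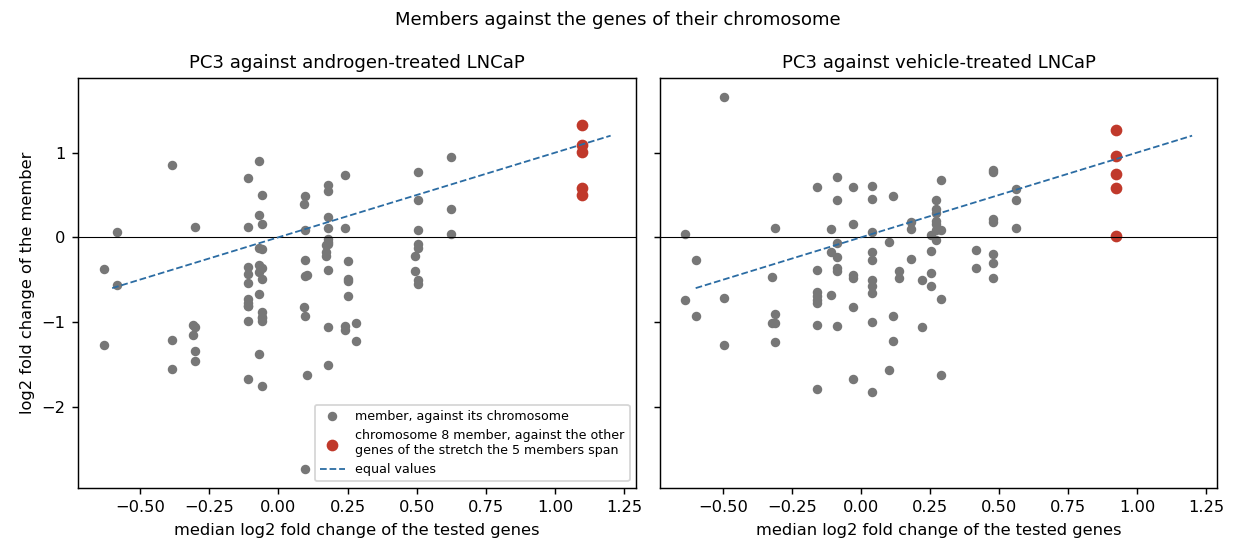
Log2 fold change of each tested member in PC3 against each LNCaP group (vertical axis), plotted against the median of the tested genes of its chromosome, or for the 5 chromosome 8 members of the other genes between the first and last of them (horizontal axis). On the dashed line a member equals its neighbours, and the chromosome 8 members stand at medians of 1.10 and 0.92, on both sides of the line.

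Other genes that serve the chain were counted from fixed lists. Of all tested genes, 37.1% rose and 37.8% fell with androgen. PC3 was higher in 42.9% and lower in 41.1% of all genes against androgen, and in 42.6% and 40.8% against vehicle. Of 47 further assembly factors of complexes I to V, 21 (44.7%) rose and 14 (29.8%) fell with androgen. In PC3 20 (42.6%) were higher and 22 (46.8%) lower than with androgen, near the shares of all genes. Against vehicle 19 (40.4%) were higher and 21 (44.7%) lower, also near those shares. Of 15 genes of ubiquinone synthesis and cytochrome c, 5 (33.3%) rose and 6 (40%) fell with androgen. PC3 was higher in 2 (13.3%) and lower in 9 (60%) of these 15 in each comparison. CYCS, cytochrome c itself, fell with androgen (-0.37), as CYC1 did, but was lower in PC3 (-0.43 and -0.78), where CYC1 was higher. Of 17 tested regulators of mitochondrial genes, 1 (5.88%) rose and 7 (41.2%) fell with androgen. In PC3 8 (47.1%) were higher and 4 (23.5%) lower than with androgen, and 7 (41.2%) and 3 (17.6%) than with vehicle. The transcription factor NRF1 stood at 22.1 ± 1.1 CPM with vehicle, 13.4 ± 0.73 CPM with androgen and 65.5 ± 6.5 CPM in PC3 (SD, n = 3), so that it was lower with androgen (-0.72 ± 0.076 SE) and higher in PC3 (2.29 ± 0.093 and 1.59 ± 0.090), while most members of the chain were lower there. TFAM, which packages and transcribes mitochondrial DNA, fell with androgen (-0.73 ± 0.041 SE) and was higher in PC3 than with androgen (0.79) and not past the test against vehicle (0.073). PPARGC1A, a coactivator of mitochondrial biogenesis, had 1 to 11 counts per library and was not tested.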

How the data were processed

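The authors trimmed reads with cutadapt, aligned them to hg38 with STAR, removed duplicates with UMI-tools (versions 4.1, 2.7.7a and 1.1.2 in the submitters' notes) and deposited counts, whole numbers of forward-strand reads per gene symbol, without normalization. Reads on the other strand of genes were 2.33% to 3.06% per library. From these counts, edgeR 4.0.16 (R 4.3.3, limma 3.58.1) computed TMM factors and the quasi-likelihood test for each pair of groups on its own 6 libraries, for genes over 3 CPM in at least 3 libraries, with p-values adjusted (Benjamini-Hochberg) over all genes. The study used a likelihood ratio test with a batch term, which was left out because the batches are not named. Printed CPM were scaled with TMM factors from a fit of the 9 libraries together. A count of 0 allows up to 3 counts, and this limit covers counting error only. Scripts were tested on simulated data. All 104 members were found in GENCODE 44. One member is counted but not reported by name here. The members, gene lists and rule for named genes (every member called at 2-fold, up to 12 per direction, the largest rise and fall of each complex past the test, the isoform sets, the SDH genes and CYC1, with further members named as examples after their values were seen) were chosen with earlier results of these data known.

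Deviations from the group means of androgen and vehicle libraries with the same replicate number correlated by 0.53, 0.31 and 0.20 over 12843 genes. Androgen 2 with vehicle 3 gave 0.13 and androgen 3 with vehicle 2 gave 0.23. Pairs of number 1 with another number gave -0.39 to -0.24. Because each group's own mean was subtracted, these negative values follow in part from the positive same-number value and add no separate evidence. Number 1 was set apart by its same-number value of 0.53, but numbers 2 and 3 were not clearly told apart. The pairing by number comes from the data, not from the labels. Alternatives were DESeq2 1.42.0 (size factors and Wald test), the likelihood ratio test, other count filters, unstranded counts, 1 fit of all 9 libraries, the replicate number as a block, each library left out, and, chosen after seeing the data, library totals without TMM factors.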

Additional observations from a re-analysis of the deposited data

How the results depend on the processing

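Over all alternatives but that of library totals, the values of the genes that the naming rule covers kept direction and side of the threshold in 1643 cases, lost the threshold in 43, gained it in 30 and changed direction in 28. Of these 28, COX8A in PC3 against androgen alone had a value past the test (0.17 without PC3 replicate 3). Log2 fold changes with single libraries left out ran, for the genes that changed direction, from -0.14 to 0.17 for COX8A, -0.23 to 0.15 for ATP5MC3, -0.22 to 0.13 for COX7A2L and -0.22 to 0.11 for COX7B in PC3 against androgen. Against vehicle they ran from -0.34 to 0.0089 for ATP5MC1, -0.32 to 0.053 for ATP5MC3, -0.11 to 0.18 for ATP5MF, -0.014 to 0.27 for COX7B, -0.017 to 0.24 for COX8A and -0.14 to 0.11 for NDUFAF6. With androgen they ran from -0.036 to 0.015 for COX5A, -0.0064 to 0.056 for NDUFB1 and -0.0065 to 0.043 for SDHC. COX8A was 0.022 against androgen with at least 10 counts in every library, and against vehicle ATP5MF was -0.0027 and NDUFAF6 -0.0077 in the fit of all 9 libraries. With library totals in place of TMM factors, added after seeing the data, 22 members were higher and 39 lower with androgen, 1 was called at 2-fold, the median was -0.073, and 12 values changed sign: with androgen COX5A (-0.15), COX8A (-0.065), NDUFB1 (-0.12), NDUFB9 (-0.0057) and SDHC (-0.12), each past the test in one of the fits, and ATP5F1E (-0.095), ATP5MC2 (-0.071) and COX6A1 (-0.065), past it in neither; in PC3 COX8A (0.073) and COX7A2L (0.0044) against androgen and NDUFAF6 (-0.067) and ATP5MF (-0.060) against vehicle, past it in neither; the shift of all genes in that scaling is by construction shared by every gene. DESeq2's Wald test, no filter on low counts and the fit of all 9 libraries each called 1 member at 2-fold with androgen. Without a filter the median was 0.099, and the cause was not tested. Members no longer past the test with androgen in the fit of all 9 libraries included SDHA, SDHB, ATP5F1C, ATP5MC1 and COX5B. COX7B, COX8A, NDUFA4L2, NDUFA5, NDUFAF2 and NDUFB6 were among them too.

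Leaving out single libraries gave medians of -0.48 to -0.17 (PC3 against androgen), -0.37 to -0.13 (PC3 against vehicle) and 0.046 to 0.088 (androgen against vehicle), the lowest of the last without vehicle replicate 3. Members called at 2-fold numbered 17 to 25, 10 to 19 and 0 to 2, members past the test and higher 16 to 29, 17 to 32 and 32 to 40, and members past the test and lower 47 to 54, 42 to 49 and 12 to 16, in the same order.

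With the replicate block, 44 members rose and 19 fell with androgen, with COX6A1 and UQCRC1 among the 9 gained. The PC3 and LNCaP libraries share only a number (correlations of -0.091 to 0.030), and with the block 20 and 53 members passed against androgen and 21 and 47 against vehicle. There NDUFAF2 was gained and NDUFB7 lost against androgen, and NDUFA1, NDUFA13 and ATP5F1E were lost against vehicle. UQCRFS1 was gained at 2-fold against vehicle, at -1.02 with the block and -0.998 without it. Beyond these and the members named in the report, the block moved no member across the test threshold. At this depth members under 3 CPM were not tested.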

Other observations

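The rows that share a member's name without being a subunit were low. The antisense row NDUFB2-AS1 stood at 0.984, 1.09 and 1.19 CPM in PC3, 2.95, 2.62 and 2.82 CPM with androgen and 2.25, 1.81 and 1.57 CPM with vehicle, with 94.8% of the reads over it on the other strand, the strand of NDUFB2. NDUFA6-DT, a divergent transcript beside NDUFA6, stood at 1.34, 1.26 and 1.38 CPM in PC3, 1.88, 2.27 and 1.66 CPM with androgen and 2.20, 3.02 and 3.00 CPM with vehicle, and its PC3 libraries lay below all LNCaP libraries. NDUFV2-AS1 stood at 1.65, 1.52 and 1.07 CPM in PC3, 0.985, 0.641 and 1.06 CPM with androgen and 1.05, 0.768 and 0.863 CPM with vehicle. The pseudogene UQCRBP1 stood at 0.740 to 1.23 CPM in the 9 libraries, with overlapping groups, and NDUFAF4P1 had at most 3 counts. The readthrough rows ATP5MF-PTCD1 and NDUFC2-KCTD14 had 0 counts in every library. None of these 7 rows passed the filter.

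The letters AGAACA, one arm of the androgen receptor element, lay in the promoter windows of 8 members (COX7A2, NDUFB2, ATP5F1C, COX8A, ATP5MG, NDUFA12, NDUFAF1 and NDUFA3), of which 7 rose with androgen and none fell at the adjusted threshold (edgeR). The letters lay in 10.4% of the 77 members' windows, in 8.45% of the windows of tested genes and in 14.9% of all windows. Of all 780 tested genes with these letters in the window, 40.5% rose and 37.8% fell. COX8A, NDUFB2 and ATP5F1C were not past the test without vehicle replicate 3, and with libraries scaled by totals neither these nor ATP5MG and NDUFA3 were. These letters were counted after the members' values were known.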
